A study of Rattus norvegicus with 23 samples.

Results

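Acod1, Nos2, Ptgs2, Ptges, Ch25h, Cybb, Ncf1, Alox5 and Alox5ap, 9 immunometabolic and effector enzymes of activated macrophages, were examined in microglia of neonatal rats after inflammation, hypoxia-ischemia (HI) or both. They were chosen by name as a functional group, with results of these data already known, and 8 of the 9 were measured among the 20301 genes of the deposited table. Ptges, the inducible prostaglandin E synthase, is not analysed here. Because of that choice, the differences of the 8 enzymes between groups are given as a description with no p-value. How many of them passed in the fit across all genes is counted beside the share of all genes that did, with nothing read from it, and p-values are printed for other genes of the same pathways only.

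RNA was sequenced from cells that had been taken with CD11b/c magnetic beads from brains of Wistar rat pups, operated at postnatal day 7 and killed 24 h later. Sham samples (n = 6) came from pups with a sham operation and no listed injection, and LPS samples (n = 5) from pups given lipopolysaccharide, a bacterial cell wall component, at 0.1 mg/kg without HI. NaCl/HI samples (n = 6) came from pups given saline before HI, and LPS/HI samples (n = 6) from pups given the same dose of LPS and, after 4 h, HI. HI was a unilateral carotid ligation followed by 50 min at 8% oxygen. Each Sham or LPS sample was the entire brain of 1 pup, and each HI sample pooled 2 ipsilateral hemispheres, so that HI cannot be told apart from the tissue taken and from pooling. The beads also bind macrophages that have entered the brain, and in bulk RNA a change in the share of a cell type and a change in its RNA per cell cannot be told apart. Values are regularized log2 values (rlog, which pulls weakly expressed genes towards their mean), corrected by the authors for 3 surrogate variables, so the depth behind each sample is unknown, and levels of different genes are not on a common scale per length.

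These enzymes turn small substrates into effector molecules. Acod1 makes itaconate from the tricarboxylic acid (TCA) cycle intermediate cis-aconitate, and itaconate inhibits succinate dehydrogenase. Nos2 makes nitric oxide from arginine. Ptgs2 (cyclooxygenase-2) and Ptges lead to prostaglandin E2, Ch25h makes 25-hydroxycholesterol, Cybb and Ncf1 are subunits of the phagocyte NADPH oxidase, and Alox5 with its activating protein Alox5ap starts leukotriene synthesis.

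RefSeq promoter windows (build GRCr8, 250 bases before to 50 after the gene start) were at hand for 7 of the 9 enzymes. Those of Acod1, of the cholesterol hydroxylase Ch25h and of both oxidase subunits Ncf1 and Cybb are printed below for the 250 bases before the start, 5′ to 3′ on the strand of the gene. Acod1 is shown as the gene with the largest range between group means, Ch25h and Ncf1 as genes with higher means in LPS and in LPS/HI than in Sham, and Cybb as the partner of Ncf1. Capitals mark letters that matched 1 of the 10 searched motifs on either strand. The windows lie at chr15:86286289-86286538 (plus strand) for Acod1, chr1:241429367-241429616 (minus strand) for Ch25h, chr12:28121635-28121884 (plus strand) for Ncf1 and chrX:16065066-16065315 (minus strand) for Cybb.
Acod1: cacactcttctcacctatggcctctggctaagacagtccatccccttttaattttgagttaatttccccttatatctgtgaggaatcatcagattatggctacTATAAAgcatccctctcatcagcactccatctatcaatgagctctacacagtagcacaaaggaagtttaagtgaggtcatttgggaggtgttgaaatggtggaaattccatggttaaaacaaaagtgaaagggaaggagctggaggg
Ch25h: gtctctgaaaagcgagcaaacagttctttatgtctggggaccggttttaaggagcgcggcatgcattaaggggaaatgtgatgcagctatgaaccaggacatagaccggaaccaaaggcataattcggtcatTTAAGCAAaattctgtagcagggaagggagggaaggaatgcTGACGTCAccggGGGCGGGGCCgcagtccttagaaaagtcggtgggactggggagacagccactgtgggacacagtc
Ncf1: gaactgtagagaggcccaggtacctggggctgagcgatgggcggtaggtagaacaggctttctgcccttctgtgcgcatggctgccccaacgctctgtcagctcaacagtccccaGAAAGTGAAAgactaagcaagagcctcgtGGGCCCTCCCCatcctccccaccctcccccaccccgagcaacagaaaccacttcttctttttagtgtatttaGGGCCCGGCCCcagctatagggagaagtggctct
Cybb: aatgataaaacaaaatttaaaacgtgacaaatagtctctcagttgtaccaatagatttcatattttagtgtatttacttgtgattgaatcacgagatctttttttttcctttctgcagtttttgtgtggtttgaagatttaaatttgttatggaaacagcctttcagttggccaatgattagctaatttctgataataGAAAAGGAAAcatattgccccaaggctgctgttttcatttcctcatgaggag

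In the Acod1 window only the TATA box letters TATAAA matched, 147 bases before the start and again from base 11 after it, and 14.2% of all 33469 promoter windows hold them. The Ch25h window held the cyclic AMP response letters TGACGT, as an overlapping pair on both strands 77 and 75 bases before the start, in 7.94% of all windows. It also held the C/EBP type letters TTGCNNAA (10.6% of all windows) 118 bases before the start and the loose NF-kB type letters GGG, any 5 bases and CC (47.3%) 65 bases before it. Both oxidase subunits held the interferon type letters GAAA, any 2 bases and GAAA, at 135 bases before the start in Ncf1 and 52 in Cybb, which 3.92% of all windows hold. The Ncf1 window also held the loose NF-kB letters in 2 overlapping pairs, from 106 and from 34 bases before the start, and once from base 17 after it. None of these 4 windows held the stricter NF-kB letters GGG, any 2 bases and TTTCC (1.53% of all windows), the other C/EBP letters TTNCGNAA (2.5%), the STAT letters TTCNNNGAA (8.87%), the AP-1 letters TGACTCA (4.63%) or the hypoxia response letters TACGTG (3.49%).

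Acod1 and Nos2 were higher on average in both HI groups than in Sham or LPS, but with a wide spread between samples. The standard deviation within groups was 0.67 for Acod1 and 0.59 for Nos2, each larger than that of at least 99.6% of all genes. For the other 6 enzymes it lay between 0.08 and 0.23.

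Acod1 was at 4.51, 4.51, 4.26, 4.73, 3.88 and 4.37 in the 6 Sham samples and at 4.46, 3.95, 4.36, 3.98 and 2.79 in the 5 LPS samples. The NaCl/HI samples were at 5.52, 5.90, 6.06, 4.02, 4.89 and 4.82, and the LPS/HI samples at 6.45, 4.94, 5.03, 5.75, 4.99 and 4.76. All 6 LPS/HI samples lay above every Sham sample (so for 3.85% of genes) and every LPS sample (2.32%), whereas 1 NaCl/HI sample lay below the Sham mean. The means were 3.91 ± 0.66 in LPS, 4.38 ± 0.29 in Sham, 5.20 ± 0.77 in NaCl/HI and 5.32 ± 0.65 in LPS/HI (SD). Of the neighbours in that order, Sham and NaCl/HI were separated by more than the larger SD, though their samples overlapped, and neither LPS and Sham nor both HI groups were. LPS/HI exceeded LPS by 1.41 ± 0.35 on the log2 scale (SE), a 2.66-fold difference, and Sham by 0.94 ± 0.34, and LPS minus NaCl/HI was -1.30 ± 0.35. LPS minus Sham was -0.47 ± 0.35. Acod1 was weakly expressed, with a mean over all samples of 4.74, at the 28.4th percentile of all genes. Without its lowest sample, LPS replicate 5, LPS/HI minus LPS was 1.13, LPS minus NaCl/HI -1.02 and LPS minus Sham -0.19.

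Nos2 was at 7.50, 7.30, 7.13, 7.71, 6.35 and 7.21 in Sham and at 7.63, 7.36, 7.54, 6.99 and 7.09 in LPS. In NaCl/HI it was at 7.95, 8.14, 8.28, 6.93, 7.44 and 6.99, and in LPS/HI at 8.80, 7.86, 7.90, 9.10, 7.19 and 7.79. The highest values were 2 LPS/HI samples, and the ranges of all groups overlapped. The means stood in the order Sham (7.2 ± 0.47), LPS (7.32 ± 0.28), NaCl/HI (7.62 ± 0.59) and LPS/HI (8.11 ± 0.71, SD), with no step larger than the larger SD of both groups beside it. LPS/HI exceeded Sham by 0.91 ± 0.30 (SE).

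**Figure D1:**
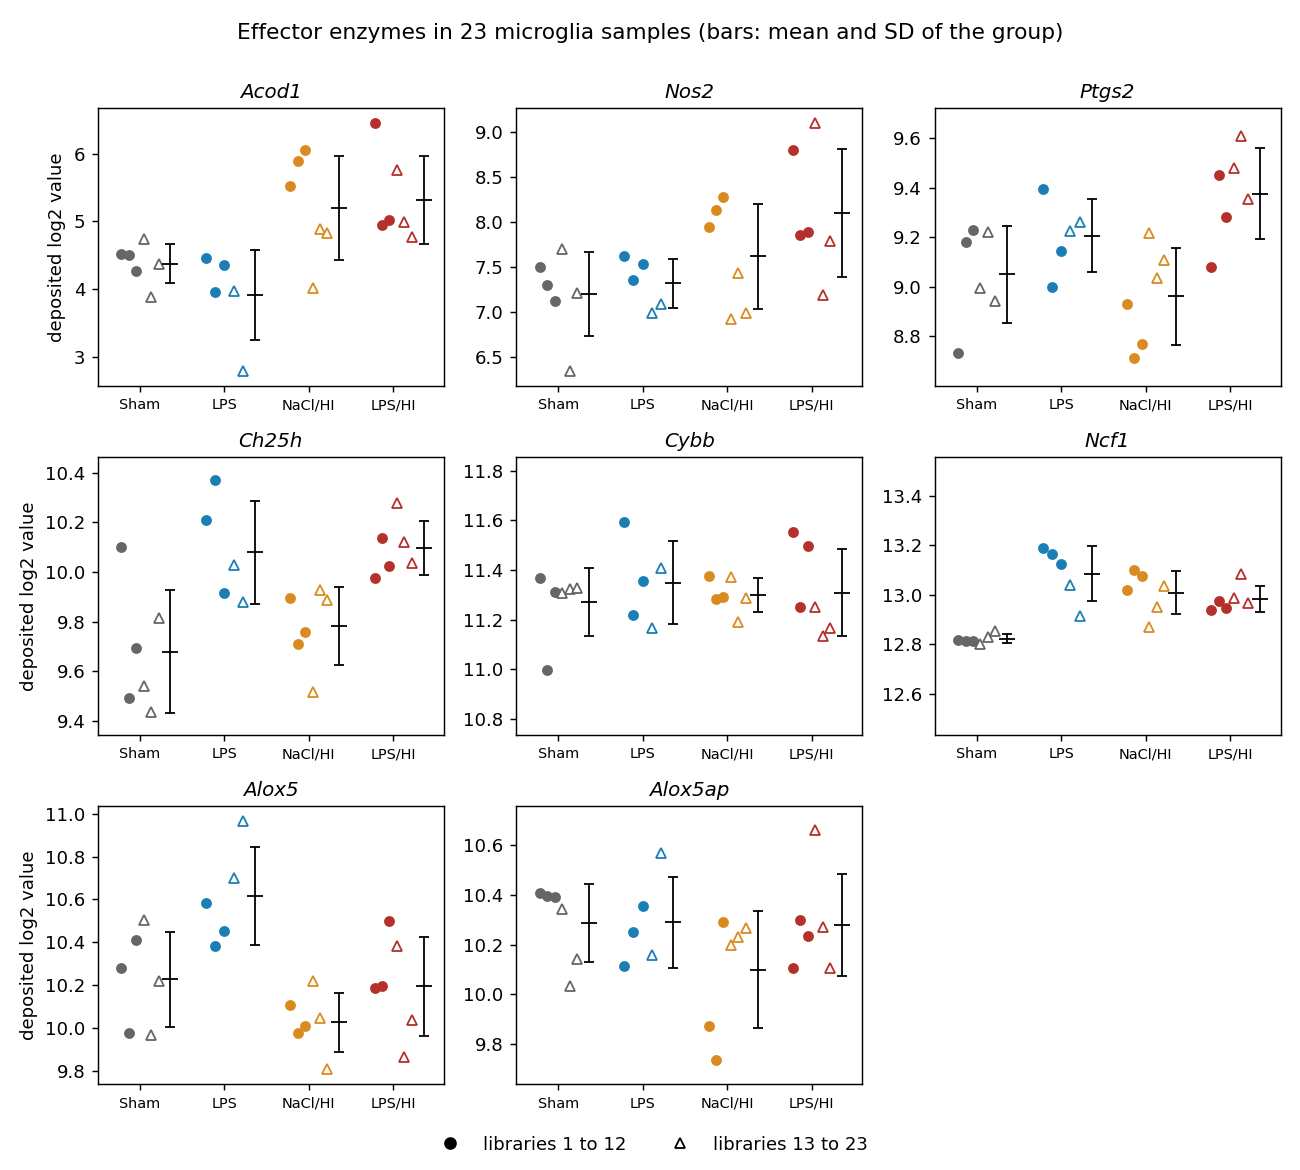
Deposited log2 value (y axis, each panel with its own range) of the 8 measured enzymes in samples of Sham (6), LPS (5), NaCl/HI (6) and LPS/HI (6); filled circles are libraries 1 to 12, open triangles libraries 13 to 23, and the bars beside the points give the mean and SD of the group. In NaCl/HI, the 3 filled circles of Acod1 and of Nos2 lie above the 3 triangles, and Ncf1 is lowest in all 6 Sham samples.

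Within NaCl/HI the samples of both enzymes fell apart by library name. The 3 libraries with names up to 12 were all higher than the 3 with names from 13 on, by 1.25 for Acod1 and 1.00 for Nos2 on the log2 scale. In this group 11.2% of all genes did not overlap between both sets of libraries, and 23 genes (0.113%) had means more than 1 apart. The names are only an order in the table, and nothing in the sources used here calls them a batch. Taken within libraries 1 to 12, NaCl/HI minus Sham was 1.40 for Acod1 and 0.81 for Nos2 (3 against 3 samples), and within libraries 13 to 23 it was 0.25 and 0.03. LPS/HI minus NaCl/HI was -0.36 in the first set and 0.59 in the second for Acod1 and 0.065 and 0.91 for Nos2, and the samples of both groups overlapped each time. LPS/HI minus Sham kept its sign in both sets, at 1.04 and 0.84 for Acod1 and at 0.88 and 0.94 for Nos2, with samples that overlapped for Nos2 in the second set. For Acod1, LPS/HI minus LPS was 1.22 and 1.78, and LPS minus NaCl/HI -1.57 and -1.20, all without overlap. For overlap between groups within a set of libraries, here and below, the share over all genes is not given. LPS minus NaCl/HI for Nos2 was -0.61 in the first set and -0.076 in the second.

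Markers of blood-derived myeloid cells were also unequal between these samples. The mean of 10 monocyte markers was 9.97 to 10.28 in the 3 NaCl/HI libraries with names up to 12 and 9.39 to 9.63 in the other 3, beside 9.14 to 9.62 in Sham, 9.59 to 9.86 in LPS and 9.58 to 10.24 in LPS/HI. The mean of 13 neutrophil markers was highest in LPS/HI (7.06 to 8.15), against 6.74 to 7.26 in Sham, 6.60 to 7.11 in LPS and 6.60 to 7.24 in NaCl/HI, and it overlapped between both sets of NaCl/HI libraries. Against Sham, 6 of 13 neutrophil markers and 4 of 10 monocyte markers rose in LPS/HI (limma, adjusted p under 0.05), beside 5.3% of all genes. S100a9 of the neutrophil list was at 10.04 on average, and Elane of the same list was at 0.33 and at most 0.44 in any sample. The mean of 13 microglia markers lay between 12.07 and 12.46 in the 23 samples and was lowest in LPS (12.15, against 12.33 in Sham, 12.28 in NaCl/HI and 12.25 in LPS/HI). In LPS minus Sham 6 of the 13 fell and 1 rose (7.56% and 10.2% of all genes), and in LPS minus NaCl/HI 5 fell and 1 rose (3.66% and 5.32%). Of the microglia markers, P2ry12 averaged 13.9 and Csf1r 16.5, while Siglech was at -1.05. Over the 23 samples the monocyte mean had a Pearson correlation of 0.76 with Acod1 and 0.82 with Nos2, and with the group means subtracted the values were 0.84 and 0.83. The neutrophil mean had correlations of 0.56 with Acod1 and 0.76 with Nos2, which were 0.46 and 0.71 with the group means subtracted and 0.37 and 0.51 without the 2 samples farthest from the median of the list. High values were not particular to lists of blood-derived cells: those of mural cells and fibroblasts were 0.75 and 0.64 (0.48 and 0.47 with the group means subtracted), and those of astrocytes 0.55 and 0.61 (0.57 and 0.48). Among the 10 lists, that of neurons had the lowest values, -0.36 and -0.54. These correlations are a description over samples of 4 groups, computed after the values had been seen, and the part of such cells in the levels of the enzymes was not tested.

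**Figure D2:**
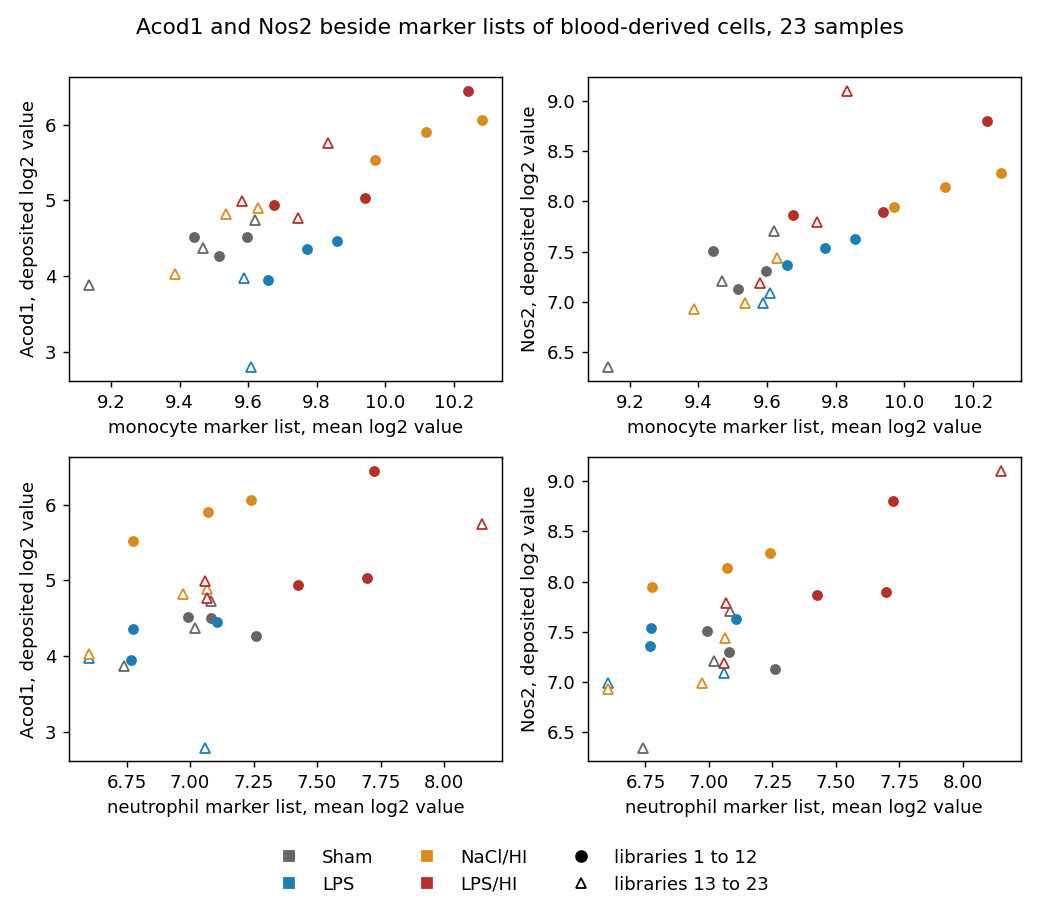
Deposited log2 value of Acod1 and Nos2 (y axes) against the mean log2 value of 10 monocyte markers (upper row) and 13 neutrophil markers (lower row) in 23 samples; colours are the groups, filled circles libraries 1 to 12 and open triangles libraries 13 to 23. The 3 NaCl/HI libraries with names up to 12 stand at the upper right against the monocyte list, at 9.97 to 10.28.

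Acod1 and Nos2 also varied together, with a correlation of 0.80 over 23 samples and 0.81 with the group means subtracted. Ptgs2 went the other way within groups, at -0.57 with Acod1 and -0.58 with Nos2. The genes whose pattern over the 23 samples was most like Acod1 were Il1rn, the interleukin-1 receptor antagonist (0.93), the lectin receptor Clec4e (0.92), Nlrp12 (0.91), the interferon-induced Ifit3 (0.91) and Chi3l1 (0.90). For Nos2 they were Sirpal1 (0.93), Nlrp12 (0.93), Chi3l1 (0.92), the guanine deaminase Gda (0.92) and the aspartic protease Napsa (0.92). With the group means subtracted, Ifit3 was the most like Acod1 (0.93) and Nlrp12 the most like Nos2 (0.94), and Cd44 of the monocyte list (0.90 with Acod1) and Cxcr2 of the neutrophil list (0.92 with Nos2) were among the next 4.

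**Figure D3:**
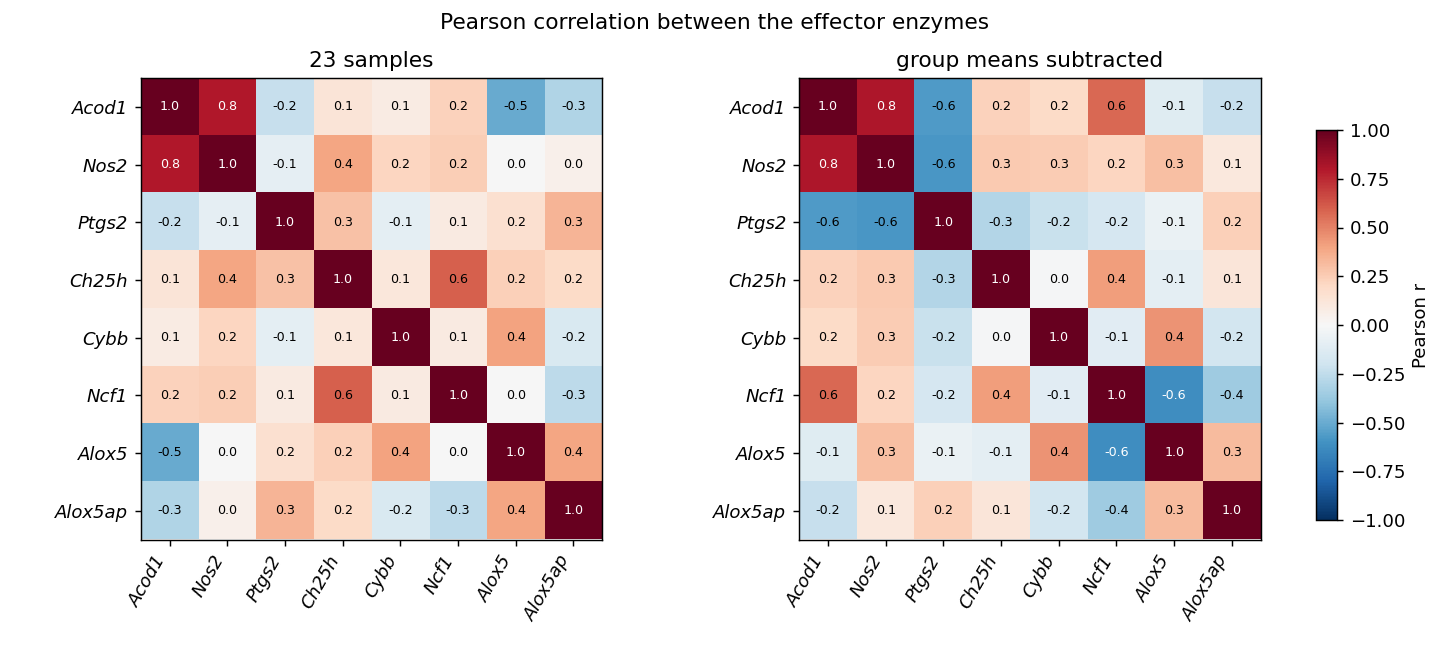
Pearson correlation (colour scale from -1 to 1, with the value rounded to 1 decimal in each cell) between the 8 measured enzymes over 23 samples, on the left as deposited and on the right with the group means subtracted. Acod1 and Nos2 stand at 0.80 on the left, and Ptgs2 is negative against both of them on the right.

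Of the other enzymes, Ch25h and Ptgs2 were highest on average where LPS had been given. Ch25h was at 10.10, 9.49, 9.69, 9.54, 9.43 and 9.82 in Sham, at 10.21, 10.37, 9.92, 10.03 and 9.88 in LPS, at 9.89, 9.71, 9.76, 9.51, 9.93 and 9.89 in NaCl/HI, and at 9.98, 10.14, 10.02, 10.28, 10.12 and 10.04 in LPS/HI. The lowest LPS/HI sample lay above the highest NaCl/HI sample, as for 0.901% of genes, and all but 1 Sham sample lay below every LPS sample. The order of the means was Sham (9.68 ± 0.25), NaCl/HI (9.78 ± 0.16), LPS (10.08 ± 0.21) and LPS/HI (10.10 ± 0.11, SD), and the one step beyond the larger SD of both groups was that from NaCl/HI to LPS. LPS minus Sham was 0.40 ± 0.11 and LPS/HI minus Sham 0.42 ± 0.10, while NaCl/HI minus Sham was 0.10 ± 0.10 (SE). Within libraries 1 to 12 and within 13 to 23, LPS minus Sham was 0.40 and 0.36, and LPS/HI minus Sham 0.28 and 0.55.

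Ptgs2 was at 8.73, 9.18, 9.23, 8.99, 9.22 and 8.94 in Sham, at 9.40, 9.0, 9.15, 9.22 and 9.26 in LPS, at 8.93, 8.71, 8.77, 9.22, 9.03 and 9.11 in NaCl/HI, and at 9.08, 9.45, 9.28, 9.48, 9.61 and 9.36 in LPS/HI. All groups overlapped, although all 6 LPS/HI samples were above the Sham mean and the NaCl/HI mean. From NaCl/HI (8.96 ± 0.20) over Sham (9.05 ± 0.20) and LPS (9.21 ± 0.15) to LPS/HI (9.38 ± 0.18, SD), no single step exceeded the larger SD. LPS/HI minus NaCl/HI was 0.41 ± 0.10 and LPS/HI minus Sham 0.33 ± 0.10 (SE). Unlike Acod1 and Nos2, Ptgs2 in NaCl/HI was lower in all 3 libraries with names up to 12 than in the other 3, a mean difference of -0.32. LPS/HI minus NaCl/HI of Ptgs2 was 0.47 within libraries 1 to 12 and 0.36 within 13 to 23, and LPS/HI minus Sham 0.22 and 0.43.

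Among the oxidase subunits Ncf1 (p47phox, the cytosolic organizer) separated Sham from every other group. The group means of Cybb (gp91phox, the membrane-bound catalytic subunit) over all samples did not differ by more than its spread. Ncf1 was at 12.82, 12.81, 12.82, 12.80, 12.83 and 12.86 in Sham, at 13.19, 13.17, 13.13, 13.04 and 12.91 in LPS, at 13.02, 13.10, 13.08, 12.87, 12.95 and 13.04 in NaCl/HI, and at 12.94, 12.98, 12.95, 12.99, 13.09 and 12.97 in LPS/HI. No sample of the other groups fell into the narrow range of Sham. All LPS samples were above all Sham samples for 8.05% of genes, all NaCl/HI samples for 0.522% and all LPS/HI samples for 3.85%. The differences from Sham were small, 0.26 ± 0.05 in LPS, 0.19 ± 0.05 in NaCl/HI and 0.16 ± 0.05 in LPS/HI (SE), the first a 1.20-fold one. Within libraries 1 to 12 these differences were 0.34, 0.25 and 0.14, and within 13 to 23 they were 0.15, 0.12 and 0.19. The means of Cybb lay within 0.077 of each other, from 11.27 ± 0.14 in Sham to 11.35 ± 0.17 in LPS (SD), and its samples ranged from 10.996 to 11.37 in Sham, 11.16 to 11.59 in LPS, 11.19 to 11.38 in NaCl/HI and 11.13 to 11.55 in LPS/HI. LPS/HI minus Sham of Cybb was 0.21 within libraries 1 to 12, with overlap, and -0.14 within 13 to 23, where all LPS/HI samples lay below all Sham samples.

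Alox5, which makes the leukotriene precursor, was highest after LPS alone. It was at 10.28, 9.98, 10.41, 10.50, 9.97 and 10.22 in Sham, at 10.58, 10.38, 10.45, 10.70 and 10.96 in LPS, at 10.11, 9.98, 10.01, 10.22, 10.04 and 9.81 in NaCl/HI, and at 10.19, 10.20, 10.50, 10.38, 9.86 and 10.04 in LPS/HI. Every LPS sample lay above every NaCl/HI sample, by 0.59 ± 0.12 on average (SE), which held for 4.79% of all genes. The only step in the order NaCl/HI, LPS/HI, Sham and LPS beyond the larger SD of both groups was the last, 0.39 ± 0.12. LPS minus Sham was 0.25 within libraries 1 to 12, where the samples overlapped, and 0.60 within 13 to 23, where they did not, and LPS minus NaCl/HI was 0.44 and 0.81. Within LPS the 3 libraries with names up to 12 were all lower than the other 2, a mean difference of -0.36, and 25.3% of all genes did not overlap between these sets. Alox5ap ranged from 10.03 to 10.41 in Sham, 10.11 to 10.57 in LPS, 9.73 to 10.29 in NaCl/HI and 10.10 to 10.66 in LPS/HI, and no difference between its group means was larger than 0.19. Within libraries 1 to 12 all samples of the other 3 groups lay below all Sham samples, with differences of -0.16 in LPS, -0.43 in NaCl/HI and -0.19 in LPS/HI, and within 13 to 23 the differences were 0.19, 0.058 and 0.17 with overlap.

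**Figure D4:**
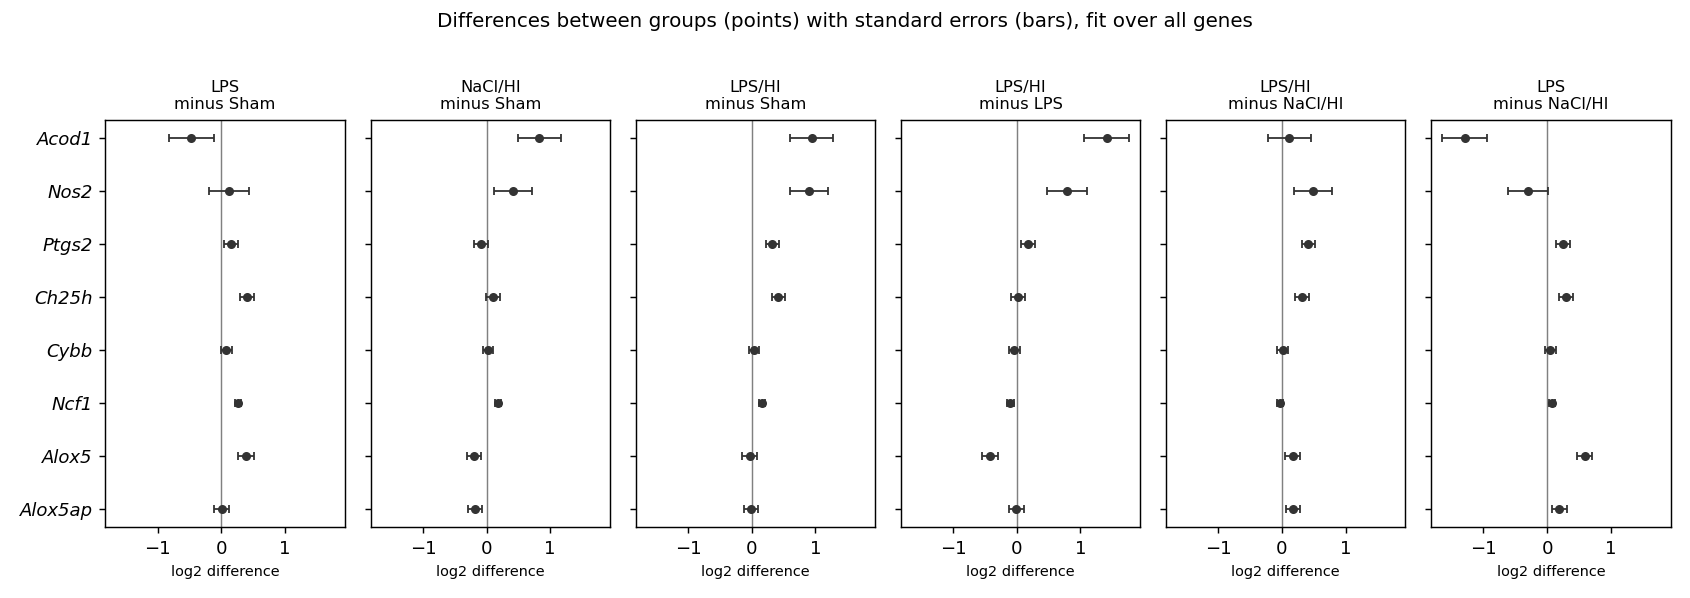
Difference between group means on the log2 scale (points, x axis) with its standard error (bars) for the 8 measured enzymes in the 6 pairs of groups, from 1 fit over all genes. The widest bars are those of Acod1 and Nos2, and Acod1 stands at 1.41 in LPS/HI minus LPS.

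By the fit across all genes, at adjusted p under 0.05, 3 of the 8 enzymes passed in LPS minus Sham (Ch25h, Ncf1 and Alox5, all higher), where 17.8% of all genes did and 10.2% were higher. In LPS/HI minus Sham it was 2 (Ch25h and Ncf1, both higher) beside 8.77% of genes (5.3% higher), in LPS/HI minus LPS 1 (Acod1, higher) beside 1.94% (1.22% higher), and in LPS minus NaCl/HI 2 (Acod1 lower, Alox5 higher) beside 8.98% (3.66% lower, 5.32% higher). None passed in NaCl/HI minus Sham (0.00985% of genes) or in LPS/HI minus NaCl/HI (0.202%), where limma gave 2 enzymes each an unadjusted p under 0.05 (14.8% and 10.6% of genes) and the exact Wilcoxon test gave 0 in both after adjustment. In the interaction of LPS with HI, the LPS/HI minus NaCl/HI difference less the LPS minus Sham difference, 1 passed (Ncf1, -0.29 ± 0.07, SE) beside 1.08% of genes (0.719% lower, 0.365% higher). NaCl/HI pups had a saline injection and Sham pups no listed one, so that a different action of LPS with HI cannot be told apart from the injection. Since these contrasts were in view when the enzymes were chosen, nothing is read from these counts. With the fold threshold of 2 that the study used, Acod1 in LPS/HI minus LPS (0.0345% of genes) and in LPS minus NaCl/HI (0.0591%) remained. When each of the 23 libraries was left out in turn, Ncf1 in LPS minus Sham, Ch25h in LPS/HI minus Sham and Alox5 in LPS minus NaCl/HI passed all 23 times. Acod1 passed 10 times in LPS/HI minus LPS and 18 times in LPS minus NaCl/HI, and its differences stayed between 1.13 and 1.55 and between -1.53 and -1.02. Ncf1 passed 12 times in LPS/HI minus Sham and 3 times in the interaction. Without the 3 NaCl/HI libraries with names up to 12, Acod1 did not pass in LPS minus NaCl/HI, and without the 3 with names from 13 on, Acod1 and Ncf1 passed in NaCl/HI minus Sham. Ncf1 also passed there without NaCl/HI replicate 4 or with 19 residual degrees of freedom, and Ptgs2 passed in LPS/HI minus NaCl/HI without LPS/HI replicate 1 or with 19. In LPS/HI minus Sham the number of enzymes was 5 (Acod1, Nos2 and Ptgs2 besides Ch25h and Ncf1) with the library series as a term, with 19 degrees of freedom or without the NaCl/HI libraries from 13 on, 4 (all but Acod1) without those up to 12, and 1 to 4 with a single library left out. It was 1 (Ch25h) with the replicate block or after quantile normalization, and by the adjusted Wilcoxon test Acod1 and Ncf1 passed and Ch25h did not. The count over all genes moved as well, between 769 and 2544 with a single library left out, beside 1781. Counts over all genes under the other settings are given only in part below, and nothing is read from the number of enzymes. Acod1 did not pass in LPS/HI minus LPS with no variance trend, with only the 2 groups in the fit or after quantile normalization. In LPS minus Sham, Ncf1 alone passed with only the 2 groups or by the Wilcoxon test, and Alox5 did not pass after quantile normalization. In LPS minus NaCl/HI, Alox5 alone passed with only the 2 groups. The adjusted Wilcoxon test passed 0 of all 20301 genes in the 4 comparisons other than those of LPS and of LPS/HI with Sham, so that it says nothing about single enzymes or pathway genes there. Median differences over the 8 enzymes were 0.14 in LPS, 0.065 in NaCl/HI and 0.24 in LPS/HI minus Sham, and -0.014, -0.0073 and -0.0024 over all genes.

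The pathways around the enzymes were followed with 8 lists of other genes, 157 of 164 of them measured. These lists too were drawn up with earlier results of the data known, so their counts and p-values, adjusted over all genes, are no independent evidence. In LPS minus Sham 34 rose and 12 fell, and in LPS/HI minus Sham 26 rose and 5 fell (limma, adjusted p under 0.05), and none of these changes reached 2-fold. Over all genes 10.2% rose and 7.56% fell in LPS minus Sham, and 5.3% rose and 3.48% fell in LPS/HI minus Sham, so that the number of pathway genes that fell was near the share over all genes. The counts of single lists are to be read against the same shares. Microglia markers also fell in LPS minus Sham, 6 of 13, and in LPS/HI minus Sham 6 of 13 neutrophil, 4 of 10 monocyte, 3 of 8 mural cell and fibroblast and 2 of 7 endothelial markers rose, and their part in these counts was not tested. In NaCl/HI minus Sham none passed, against 38 at an unadjusted p under 0.05 and 0 by the adjusted exact Wilcoxon test, but 16 passed once NaCl/HI replicate 4 was left out, as did 556 genes in place of 2. In LPS/HI minus NaCl/HI none passed either, with 29 at an unadjusted p under 0.05, 0 by the Wilcoxon test and 2 without LPS/HI replicate 1. LPS minus Sham also compares injected with uninjected pups. Of the 46 calls in LPS minus Sham, 28 held whichever library was left out, and of the 31 in LPS/HI minus Sham 15 did. The rlog values and their correction had been made with all libraries present. Leaving 1 out, here and above, therefore does not remove its part in the other values, and such counts may overstate stability. The genes given next are those that held in all 23 cases in the comparison named, unless another count is stated.

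In the list of itaconate and TCA cycle genes, 13 of 24 genes rose in LPS minus Sham (10 to 15 with 1 library left out) and 8 in LPS/HI minus Sham, none fell, and the list median was 0.16 in LPS beside -0.014 for all genes. The 8 became 2 without LPS/HI replicate 5, and 4 or 5 without LPS/HI replicate 2 or 3 or Sham replicate 5 or 6. Sdhb, the iron-sulfur subunit of succinate dehydrogenase, rose from 11.29 ± 0.04 in Sham to 11.64 ± 0.08 in LPS (SD), a difference of 0.35 ± 0.04 (SE, limma adjusted p = 1.46e-05), with all 5 LPS samples (11.55 to 11.72) above all 6 Sham samples (11.23 to 11.36). Sdha, the catalytic subunit, rose by 0.24 ± 0.04 (adjusted p = 0.000299) and Idh3g of the isocitrate dehydrogenase by 0.24 ± 0.04 (adjusted p = 0.000518). Suclg1 rose by 0.17 ± 0.04 in LPS/HI (adjusted p = 0.0109), and Sdhb by 0.20 ± 0.04 there (adjusted p = 0.00887). Acod1 itself was at -0.47 ± 0.35 in LPS minus Sham (SE), with overlapping samples, and at -0.19 without LPS replicate 5. A relation between Acod1 and these genes was not tested. The dicarboxylate carrier Slc13a3 was at 0.26 ± 0.11 in LPS minus Sham (adjusted p = 0.122).

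In the list of arginine, nitric oxide and polyamine genes, 4 of 24 rose and 3 fell in LPS minus Sham, 4 in all without LPS replicate 4, and 2 rose and 2 fell in LPS/HI minus Sham. Slc7a2, a transporter of arginine into the cell, was lowest in LPS (8.47 ± 0.11, SD, against 8.68 ± 0.08 in Sham, 8.77 ± 0.04 in NaCl/HI and 8.81 ± 0.13 in LPS/HI). LPS/HI exceeded LPS by 0.35 ± 0.06 (SE, limma adjusted p = 0.0091) and LPS minus NaCl/HI was -0.30 ± 0.06 (adjusted p = 0.00374). Ass1, which with Asl rebuilds arginine from citrulline, rose from 5.54 ± 0.22 in Sham to 6.17 ± 0.15 in LPS/HI (SD), by 0.63 ± 0.13 (SE, adjusted p = 0.00693), and the LPS/HI samples (5.97 to 6.35) lay above all Sham samples (5.15 to 5.79). Gchfr, the feedback regulator of the enzyme Gch1 that starts synthesis of the nitric oxide synthase cofactor, rose by 0.72 ± 0.12 in LPS minus Sham (adjusted p = 0.00029). Gch1 was at -0.09 ± 0.08 in that comparison (adjusted p = 0.444). Oat, the ornithine aminotransferase, rose by 0.33 ± 0.04 (adjusted p = 2.23e-05), and Azin1, which shields ornithine decarboxylase from its inhibitor, fell by 0.31 ± 0.06 (adjusted p = 0.000519). Odc1, the ornithine decarboxylase, passed in none of the comparisons (lowest adjusted p = 0.104).

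For prostanoids, 2 of 19 genes rose, near the 10.2% of all genes, and 5 fell (7.56% of all genes) in LPS minus Sham, and these 7 became 3 or 4 without LPS replicate 2, 3 or 4 or Sham replicate 1 or 6. Mgll, the lipase that frees arachidonic acid from a glycerol ester, fell from 11.13 ± 0.09 in Sham to 10.76 ± 0.11 in LPS (SD), by 0.37 ± 0.06 (SE, limma adjusted p = 0.000311), and the phospholipase Pla2g4a rose by 0.25 ± 0.06 (adjusted p = 0.00654). Ptgs1, the constitutive cyclooxygenase, was lower in LPS (11.68 ± 0.24) than in NaCl/HI (12.13 ± 0.10, SD), at -0.45 ± 0.09 (SE, adjusted p = 0.00276). Against Sham it fell by 0.33 ± 0.09 (adjusted p = 0.0151, not without LPS replicate 4, with only the 2 groups in the fit or by the adjusted exact Wilcoxon test). The prostaglandin E2 receptor Ptger2 rose in LPS/HI minus Sham by 0.36 ± 0.08 (adjusted p = 0.0141). Hpgds fell by 0.19 ± 0.06 in LPS/HI minus Sham (adjusted p = 0.0467), a call that held for 8 of 23 libraries left out, and the thromboxane synthase Tbxas1 passed nowhere (lowest adjusted p = 0.204).

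Among the 15 oxysterol genes 2 rose and 1 fell in LPS minus Sham, whichever library was left out, which is near the shares over all genes (10.2% and 7.56%). Gpr183, the receptor for the dihydroxycholesterol that Cyp7b1 makes from the product of Ch25h, rose from 10.81 ± 0.15 in Sham to 11.25 ± 0.19 in LPS (SD), by 0.44 ± 0.11 (SE, limma adjusted p = 0.00627), and was at 10.85 ± 0.17 in LPS/HI. Soat1, which esterifies cholesterol, rose by 0.34 ± 0.06 (adjusted p = 0.000224), and Mylip, which marks the LDL receptor for degradation, fell by 0.19 ± 0.05 (adjusted p = 0.00575). The Mylip call was lost with only the 2 groups in the fit and by the adjusted exact Wilcoxon test. Cyp7b1 was at 0.07 ± 0.12 (adjusted p = 0.721).

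Of the 19 genes of NADPH oxidases and reactive oxygen, the same number rose against Sham in LPS and in LPS/HI, 4 each, and none fell. Cyba (p22phox, the membrane partner of Cybb) rose from 11.08 ± 0.06 in Sham to 11.59 ± 0.11 in LPS (SD), by 0.51 ± 0.07 (SE, limma adjusted p = 1.87e-05), and by 0.30 ± 0.06 in LPS/HI (adjusted p = 0.00715). The GTPase Rac2 rose by 0.35 ± 0.06 in LPS (adjusted p = 0.000405) and 0.26 ± 0.06 in LPS/HI (adjusted p = 0.00978), and the superoxide dismutase Sod1 by 0.26 ± 0.06 and 0.22 ± 0.05 (adjusted p = 0.00225 and 0.0148). Ncf4, a cytosolic subunit, rose by 0.45 ± 0.10 in LPS/HI (adjusted p = 0.00822) and by 0.34 ± 0.10 in LPS (adjusted p = 0.0234), the latter in 18 of 23 cases. The call in LPS was also lost with the replicate block and by the adjusted exact Wilcoxon test.

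In the leukotriene list, 3 of 17 genes rose and 1 fell in LPS minus Sham, and these 4 became 2 without LPS replicate 2 or Sham replicate 2, 4 or 5. Lta4h, which makes leukotriene B4 from the product of Alox5, rose by 0.35 ± 0.05 in LPS (SE, limma adjusted p = 8.06e-05) and 0.20 ± 0.05 in LPS/HI (adjusted p = 0.018). Ltc4s, of the other branch, was at -0.08 ± 0.12 in LPS (adjusted p = 0.695). Alox12 was lower in LPS than in NaCl/HI, at -0.39 ± 0.08 (adjusted p = 0.00253).

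Among 22 receptors and regulators 5 rose and 2 fell in LPS minus Sham, and these 7 became 3 or 4 without LPS replicate 4 or 2. The transcription factor Cebpb rose from 9.78 ± 0.17 to 10.35 ± 0.16 (SD), by 0.57 ± 0.11 (SE, limma adjusted p = 0.00109), the interferon gamma receptor subunit Ifngr2 by 0.25 ± 0.04 (adjusted p = 0.00042), and the TGF-beta receptor Tgfbr1 fell by 0.34 ± 0.09 (adjusted p = 0.0117). The LPS co-receptor Cd14 rose by 0.58 ± 0.14 in LPS/HI minus Sham (adjusted p = 0.0184), but did not pass by the adjusted exact Wilcoxon test. Of 17 other effector enzymes 5 rose in LPS/HI minus Sham, but 1 to 3 with any of 11 single libraries left out, down to 1 without LPS/HI replicate 2, 4 or 5 or Sham replicate 5. The call that held under every library left out was Upp1, the uridine phosphorylase, which rose from 6.99 ± 0.42 in Sham to 7.77 ± 0.21 (SD), by 0.79 ± 0.15 (SE, adjusted p = 0.00442). The inflammatory caspase Casp1 rose by 0.27 ± 0.06 in LPS minus Sham (adjusted p = 0.00559).

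**Figure D5:**
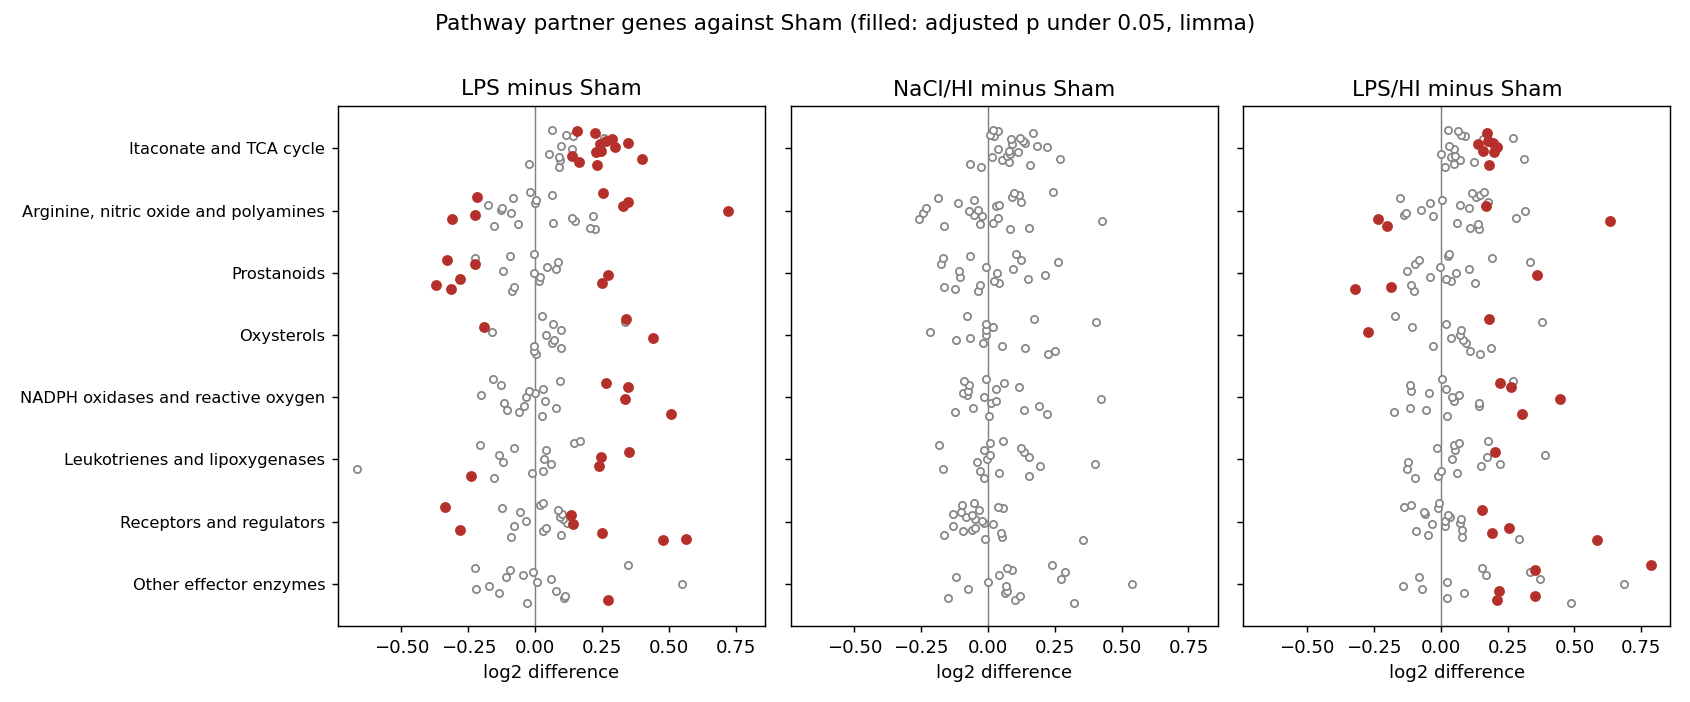
Log2 difference from Sham (x axis) of 157 pathway partner genes in 8 lists (rows) for LPS, NaCl/HI and LPS/HI; each point is 1 gene, filled where its adjusted p was under 0.05 (limma). The filled points number 46 in LPS, 0 in NaCl/HI and 31 in LPS/HI, and those of the TCA cycle list all lie to the right of 0.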

How the data were processed

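RNA-seq libraries (TruSeq RNA v2, a kit that does not mark strand, Illumina HiSeq) were made from bead-isolated microglia of 23 samples in 4 groups, each sample from separate animals. Reads were assigned to transcripts of mRatBN7.2 with kallisto 0.48.0, and FastQC 0.11.9 and MultiQC 1.14 served for quality control, per the submitters' processing notes and the study's methods. The authors deposited log2 values: rlog values from DESeq2, corrected for 3 surrogate variables while the groups were kept in the model. Read counts are not analysed here, so depth is unknown and no interval for counting error is given. Of the table's columns of values, 0 lacked a sample.

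All 20301 genes were fitted with limma 3.58.1 (R 4.3.3) over the 4 groups and 23 samples, with a variance trend and residual degrees of freedom set from 19 to 16 for the 3 removed variables. Each of 6 group pairs was compared, and the interaction of both treatments. P-values were adjusted by Benjamini and Hochberg over all genes, with a threshold of 0.05, and a fold change over 2, as the study required, was an alternative. The rlog scale understates the fold change of weakly expressed genes. Removing variables while the groups are kept can make p-values too small when those variables are related to the groups.

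The enzymes and the lists were chosen with earlier results of these data known. The text names 9 enzymes, up to 3 genes per list and comparison with the smallest adjusted p, 14 direct neighbours whatever their result, and, for Acod1 and Nos2, the 5 genes with the highest Pearson correlation over the samples. Some listed genes are not reported here. Alternatives were other degrees of freedom, no variance trend, only the groups compared, a replicate block, the library series as a term, the lowest 25% of genes left out, other scalings, an exact two-sided Wilcoxon rank-sum test and each library left out. Promoter windows came from RefSeq (GRCr8), which is not the build of the table, and served only for sequence.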

Additional observations from a re-analysis of the deposited data

Results flagged for a closer look

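Single samples stood apart from the rest of their group in 3 of 32 groups of values of the enzymes, by the gap to the nearest sample relative to the range (Dixon's criterion), and chance alone marks about 1 in 20. Cybb in Sham replicate 2 was at 10.9959, with the nearest sample at 11.3084. Ncf1 in LPS/HI replicate 5 was at 13.0865, nearest 12.9889. Alox5ap in LPS/HI replicate 4 was at 10.662, nearest 10.2978.

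The difference of LPS/HI from NaCl/HI was unlike that of LPS from Sham (interaction, limma over all genes, adjusted p under 0.05) for 5 of 157 pathway genes, beside 1.08% of all genes (0.719% lower, 0.365% higher). NaCl/HI pups had saline and Sham pups no listed injection, so that a different action of LPS with HI cannot be told apart from the injection. The interaction was -0.289006 for Sdhb (adjusted p = 0.0316) and -0.422756 for Cyba (adjusted p = 0.0316), which both rose in LPS minus Sham. It was -0.331549 for the cholesterol esterifying Soat1 (adjusted p = 0.0431). For Azin1 it was 0.335341 (adjusted p = 0.0366), and for Slco2a1, a prostaglandin transporter, 0.58799 (adjusted p = 0.0316). None of the 5 held under every single library left out: Sdhb and Slco2a1 held in 13 of 23 cases, Cyba in 12, Azin1 in 8 and Soat1 in 5. With the replicate block none of the 5 passed, with no variance trend Azin1 and Soat1 did not, Azin1 did not with libraries centred on their median, and Soat1 did not after quantile normalization. Among the enzymes Ncf1 had a difference of -0.288077, which is a description because the enzymes were chosen with these results known. It passed in 3 of 23 fits with a library left out, and not with the replicate block, with no variance trend, with the library series as a term or after quantile normalization.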

How the results depend on the processing

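Counts of genes past the threshold depended on the setting, and no difference of a called enzyme changed sign. Values are given for the 157 pathway genes, then for all genes. LPS minus Sham gave 46 and 3606, and with only the 2 groups 30 and 2337, with the replicate block 2282 over all genes, and with a fold change over 2 as well 0 and 14. NaCl/HI minus Sham gave 0 and 2, with 19 degrees of freedom 3 and 148, and over all genes 0 with no variance trend, with only the 2 groups or by the Wilcoxon test, 1 with the replicate block or the fold threshold, 8 with the library series as a term, 6 with libraries centred on their median and 10 after quantile normalization. LPS/HI minus Sham gave 31 and 1781, with the replicate block 16 and 751, with the fold threshold 0 and 19, and over all genes 3094 with 19 degrees of freedom and 1024 with only the 2 groups. LPS/HI minus LPS gave 7 and 394, with 19 degrees of freedom 17 and 1006, centred 12 and 602, with the replicate block 1 and 89, with the fold threshold 0 and 7, and 0 and 0 with only the 2 groups or by the Wilcoxon test. LPS/HI minus NaCl/HI gave 0 and 41, with 19 degrees of freedom 5 and 243, and over all genes 11 with no variance trend, 8 with the replicate block, 22 with the series, 24 after quantile normalization, 3 with the fold threshold and 0 with only the 2 groups or by the Wilcoxon test. LPS minus NaCl/HI gave 30 and 1824, with only the 2 groups 9 and 494, with the replicate block 19 and 1083, with the fold threshold 0 and 12, and 0 and 0 by the Wilcoxon test. The interaction gave 5 and 220, with 19 degrees of freedom 14 and 666, with no variance trend 3 and 142, with the replicate block 0 and 2, with the fold threshold 0 and 2, and 8 pathway genes centred; it was not run with only the 2 groups or by the Wilcoxon test. The cause of these shifts was not tested.

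With each library left out, the pathway and all-gene counts ranged from 30 to 47 and 2395 to 3954 in LPS minus Sham, 0 to 16 and 0 to 556 in NaCl/HI minus Sham, 16 to 35 and 769 to 2544 in LPS/HI minus Sham, 1 to 9 and 81 to 462 in LPS/HI minus LPS, 0 to 2 and 1 to 134 in LPS/HI minus NaCl/HI, 18 to 31 and 1076 to 2007 in LPS minus NaCl/HI, and 0 to 13 and 32 to 493 in the interaction. Chosen after the data were seen, leaving out the NaCl/HI libraries 1 to 12 gave over all genes 0 in NaCl/HI minus Sham and in LPS/HI minus NaCl/HI, 249 in LPS/HI minus LPS, 836 in LPS minus NaCl/HI and 0 pathway genes in the interaction, and leaving out 13 to 23 gave 274 in NaCl/HI minus Sham and 1053 in LPS minus NaCl/HI. Centring moved the share of higher calls from 57.5% to 68.1% in LPS minus Sham, 60.4% to 49.1% in LPS/HI minus Sham, 62.9% to 32.9% in LPS/HI minus LPS, 75.6% to 54.8% in LPS/HI minus NaCl/HI and 33.6% to 16.3% in the interaction, and quantile normalization from 100% to 80% in NaCl/HI minus Sham.

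Whether replicate numbers pair the samples cannot be decided from these values. The authors' removal of surrogate variables may also have taken out variation that paired samples share. Over 33 pairs of the same number in other groups, deviations from the group mean had a median correlation of -0.03 (from -0.47 to 0.47). Of these 33 pairs, 9 exceeded 0.1. Over 165 pairs of other numbers in other groups the median was 0.006 (from -0.77 to 0.41), and 49 exceeded 0.1. In the corrected values, the median was therefore not higher for the same number. With the replicate block, Ch25h alone of the enzymes passed in LPS/HI minus Sham and none in the interaction. Depth is unknown, so what it limits cannot be stated.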
